A study of Mus musculus with 39 samples.

Results

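The miR-34 family was followed through the first days of endoderm differentiation of mouse embryonic stem cells (ESCs). The family was represented on the miRNA array by mmu-miR-34a, mmu-miR-34b-5p, mmu-miR-34b-3p and mmu-miR-34c, 4 of 650 mouse and viral miRNAs read on each array. The members were taken by name from the array's list. mmu-miR-34a, mmu-miR-34b-5p and mmu-miR-34c were called detected by the scanner software on 39 of 39 arrays, whereas mmu-miR-34b-3p was detected on 0 of 39.

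A miRNA is a short RNA that pairs with messenger RNAs, mainly through its seed (bases 2 to 8 from the 5′ end), and lowers their translation or stability. miR-34a is transcribed from a gene of its own, while miR-34b and miR-34c are cut from 1 shared primary transcript. Transcription of both loci is known to be raised by the tumour suppressor p53, and the family is known for restraining proliferation and, in pluripotent cells, for repressing genes that sustain self-renewal. Activin A is a ligand of the TGF-beta family and Wnt3a a ligand of the canonical Wnt pathway, and both are used to direct ESCs to definitive endoderm (DE), the germ layer that gives rise to liver, pancreas and gut.

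The cells were mouse ESCs of the line TCL-1, so that all samples come from 1 line. Undifferentiated cells (ESC) were kept with LIF on mitomycin C-treated mouse embryonic fibroblast (MEF) feeders. For differentiation, feeders were removed by a short plating on gelatin, and the cells were seeded on collagen and grown in RPMI 1640 with B27 and, as the labels put it, sodium butyrate. They received 50 ng/ml Wnt3a, 100 ng/ml Activin A, both factors at those doses, or no growth factor (control), and were taken on days 1, 3 and 5, which the study calls DE initiation, progression and maturation. With the ESC group this gives 13 groups of 3 arrays. No source used here says that the 3 samples of a group were separate cultures, so p-values measure the spread between these samples, which may be technical. In such bulk RNA, fewer cells that express a miRNA and less of it per cell cannot be told apart.

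The mature sequences show which members share a seed and are printed for that reason, with the seed in capitals. They were taken from RefSeq (GRCm38.p6), which held 3 of the 4 members by name. The member not held was mmu-miR-34c, so its sequence and seed are not shown. The printed miR-34c-3p is no member but the star arm, miR-34c*, of the same hairpin.
mmu-miR-34a: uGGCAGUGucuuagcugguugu
mmu-miR-34b-5p: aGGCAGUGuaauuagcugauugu
mmu-miR-34b-3p: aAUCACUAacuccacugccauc
mmu-miR-34c-3p: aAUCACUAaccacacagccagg
mmu-miR-449a-5p: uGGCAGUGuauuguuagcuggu
mmu-miR-449c-5p: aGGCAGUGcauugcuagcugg

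The first 2 of these members carried the seed GGCAGUG, which also opens miR-449a-5p and miR-449c-5p. Thus 4 of 1679 mature mouse miRNAs in RefSeq held it, a count that could not include mmu-miR-34c. mmu-miR-34b-3p, cut from the opposite arm of the miR-34b hairpin, had another seed, AUCACUA, shared with 1 further miRNA, miR-34c-3p. mmu-miR-34a and mmu-miR-34b-5p were the same over 8 bases from base 2 onward, and mmu-miR-34b-3p shared a run of 10 bases with miR-34c-3p. In the genome mmu-miR-34a lies at chr4:150068473-150068494 on the plus strand, within the hairpin gene Mir34a at chr4:150068454-150068555. mmu-miR-34b-5p lies at chr9:51103610-51103632 and mmu-miR-34b-3p at chr9:51103574-51103595, both on the minus strand within Mir34b. The hairpins Mir34b (chr9:51103562-51103645) and Mir34c (chr9:51103034-51103110) were separated by 451 bases. The array's other probes of this kind, those for miR-34c*, miR-449a, miR-449b and miR-449c, were detected on 0 of 39 arrays.

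Several facts of the arrays bear on the values. The number of detected miRNAs per array ran from 183 to 375 and rose over time, from 183 to 235 in the ESC group to 323 to 333 in control cells on day 5. The median signal of the 143 miRNAs detected on every array was 63.3 to 78.7 in control cells on day 1 and 175 to 183 on day 3. The scanner signals were therefore quantile normalized, which gives every array the same distribution, and the normalized log2 values are called log2 levels here. One array stood apart, that of Wnt3a day 5 replicate 1, on which this median was 99.0 against up to 268 in its group. In the authors' table of processed values 18 of 39 columns held the arrays of the other of the 2 Activin A-containing treatments, so the groups used here are those of the scanner files.

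In undifferentiated cells all 3 detected members were present, and after 1 day in medium without growth factors each was higher. The scanner signal of mmu-miR-34a was 298, 277 and 310 in the ESC group and 428, 498 and 460 in control cells on day 1. That of mmu-miR-34b-5p was 18.7, 20.7 and 27.5 in the ESC group and 55.3, 62.5 and 58.0 on day 1. That of mmu-miR-34c was 15.8, 16.4 and 18.9 in the ESC group and 48.8, 56.6 and 51.9 on day 1. For each of the 3 members every day 1 array lay above every ESC array. The share of all miRNAs that did so is not given, so this only describes the arrays.

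On the log2 scale of the normalized values mmu-miR-34a rose by 0.93 ± 0.09 (SE, n = 3 against 3; limma, adjusted p = 5.68e-09) from ESC to control day 1. mmu-miR-34b-5p rose by 1.17 ± 0.30 (adjusted p = 0.00277) and mmu-miR-34c by 1.28 ± 0.38 (adjusted p = 0.00912). A miRNA was called changed where its adjusted p was under 0.05 and its fold over 2. By this rule 2 of 3 members, mmu-miR-34b-5p and mmu-miR-34c, were called higher, while 8.58% of the 373 miRNAs tested were. mmu-miR-34a changed 1.90-fold. Over 5 further scalings the difference ran from 0.49 to 1.61 for mmu-miR-34b-5p and from 0.51 to 1.82 for mmu-miR-34c, and after normexp neither exceeded 2-fold, though both tests passed under each. The ESC and control day 1 arrays were all on 1 slide, so no slide separates them.

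From day 1 to day 3 the 3 members went down in log2 level, and most steeply mmu-miR-34b-5p and mmu-miR-34c. The log2 levels of mmu-miR-34b-5p were 7.05, 6.80 and 6.88 in control cells on day 1 and 3.55, 3.99 and 3.30 on day 3. Those of mmu-miR-34c were 6.86, 6.61 and 6.74 on day 1 and 3.53, 4.13 and 3.40 on day 3. Those of mmu-miR-34a were 10.27 on each of the 3 day 1 arrays and 8.82, 8.82 and 8.87 on day 3. No day 3 array reached a day 1 array for any of them, a description given without the share of all miRNAs. The identical values of mmu-miR-34a arose because it held rank 17 of 650 on all 3 day 1 arrays, and quantile normalization gives equal ranks equal values, so that its spread there was understated.

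mmu-miR-34b-5p fell by 3.30 ± 0.30 on the log2 scale (9.83-fold; adjusted p = 1.29e-10), mmu-miR-34c fell by 3.05 ± 0.38 (8.30-fold; adjusted p = 4.41e-08) and mmu-miR-34a fell by 1.44 ± 0.09 (2.71-fold; adjusted p = 9.31e-14). Thus 3 of 3 members were called lower, against 17.2% of the miRNAs tested. The same step was called lower for 3 of 3 members under each growth factor. With Wnt3a the log2 differences of mmu-miR-34a, mmu-miR-34b-5p and mmu-miR-34c were -1.07, -3.08 and -2.68, and 14.5% of all miRNAs were called lower; without normalization that of mmu-miR-34a was 0.22. With Activin A they were -1.47, -2.67 and -2.03, beside 15% of all miRNAs; without normalization that of mmu-miR-34a was 0.11. With both factors they were -1.04, -2.69 and -2.17, beside 13.7%.

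**Figure D1:**
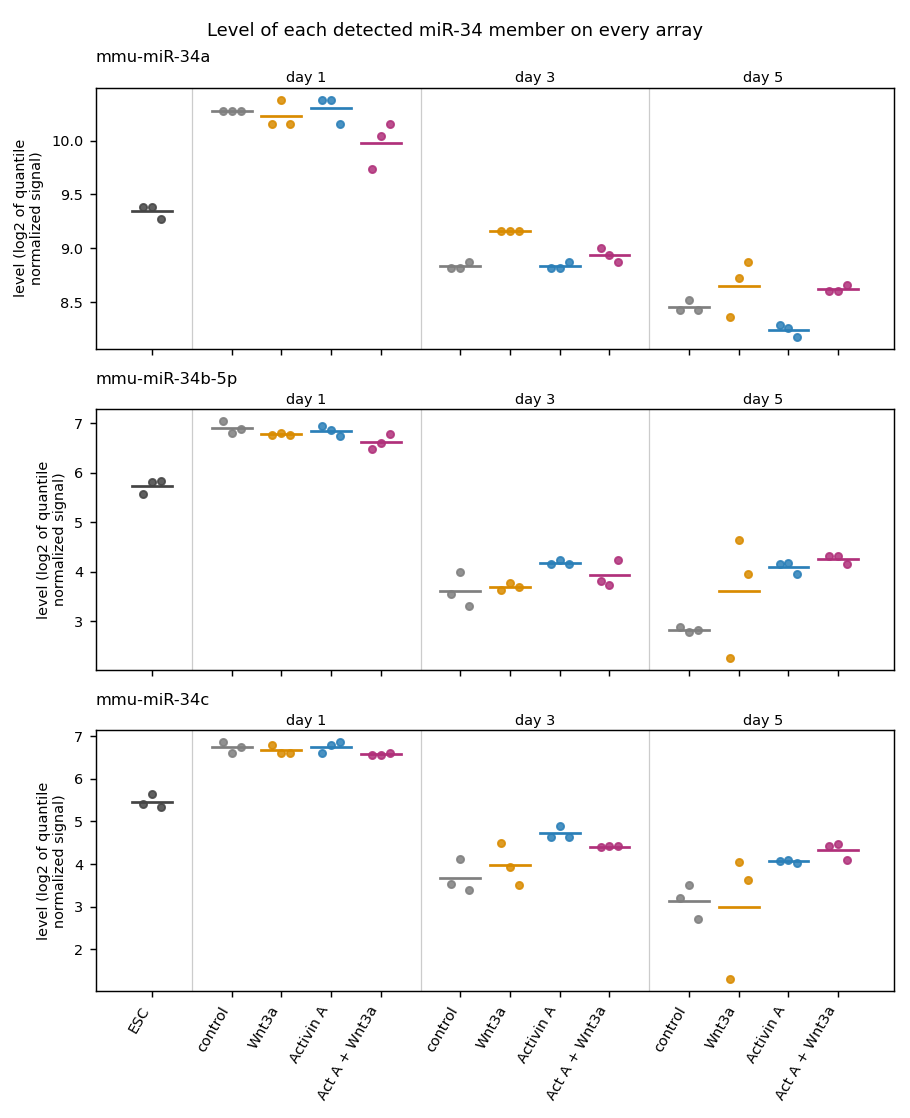
Log2 level (log2 of the quantile normalized total signal) of mmu-miR-34a, mmu-miR-34b-5p and mmu-miR-34c on each of 39 arrays, by group along the x axis; points are arrays and bars the mean of 3. For each miRNA the 4 day 1 groups sit highest, the ESC group next, and the day 3 and day 5 groups below it.

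The scanner signal of mmu-miR-34a did not go down over this step. It was 428, 498 and 460 in control cells on day 1 and 470, 501 and 433 on day 3, and these ranges overlap. Without any normalization between arrays its log2 difference was 0.02 (adjusted p = 1), while the median of the log2 differences of the 143 miRNAs detected on every array was 1.11 on the same scale. Its fall is thus one relative to those miRNAs. Over 5 further scalings the log2 difference ran from -1.53 to -1.16.

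For mmu-miR-34b-5p and mmu-miR-34c the scanner signal itself went down. mmu-miR-34b-5p read 55.3, 62.5 and 58.0 on day 1 and 13.7, 13.6 and 11.1 on day 3. mmu-miR-34c read 48.8, 56.6 and 51.9 on day 1 and 13.3, 15.6 and 11.8 on day 3. Without normalization the log2 differences were -2.20 (adjusted p = 1.09e-05) and -1.95 (adjusted p = 6.33e-05). The size depended on the scaling, from -5.29 to -0.89 for mmu-miR-34b-5p and from -5.03 to -0.79 for mmu-miR-34c, with the smallest values after the normexp background correction with an offset of 50.

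**Figure D2:**
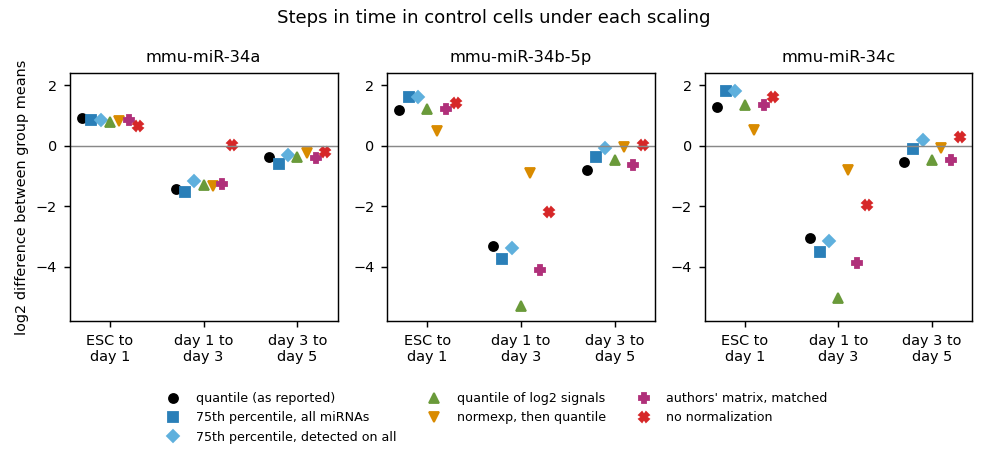
Log2 difference between group means (y axis) for each detected member over the steps from ESC to day 1, day 1 to 3 and day 3 to 5 in control cells (x axis), with 1 marker per scaling of the signals. From day 1 to 3 mmu-miR-34b-5p and mmu-miR-34c lie below 0 under each scaling shown, whereas mmu-miR-34a is at 0.02 without normalization.

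The low signals on day 3 limit how far the size of this fall can be read. Each member was read by 2 probes of 10 spots each. At least 50% of the 20 spots were well above background on 39 of 39 arrays for mmu-miR-34a, on 30 for mmu-miR-34b-5p and on 28 for mmu-miR-34c. In the ESC group 1 of 3 arrays met that for mmu-miR-34b-5p and for mmu-miR-34c. In control cells on day 5 it was 1 of 3 for mmu-miR-34b-5p and 0 of 3 for mmu-miR-34c. In control cells on day 3 no array met it for either. If these arrays are taken to give only an upper limit, on the quantile normalized scale mmu-miR-34b-5p was at least 7.15-fold lower and mmu-miR-34c at least 6.35-fold lower on day 3 than on day 1. These bounds hold on that scale alone, since the differences without normalization or after normexp were smaller.

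Both probes of each member were read separately, on the scanner's scale without normalization. For mmu-miR-34b-5p the log2 differences from control day 1 to day 3 were -2.15 and -1.65, and for mmu-miR-34c they were -1.34 and -1.48. For mmu-miR-34a they were 0.18 and -0.08, so its probes differed in sign around 0. From ESC to day 1 both probes rose for mmu-miR-34b-5p, by 1.26 and 1.07, and for mmu-miR-34c, by 1.25 and 1.15. These probe values carry no test.

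**Figure D3:**
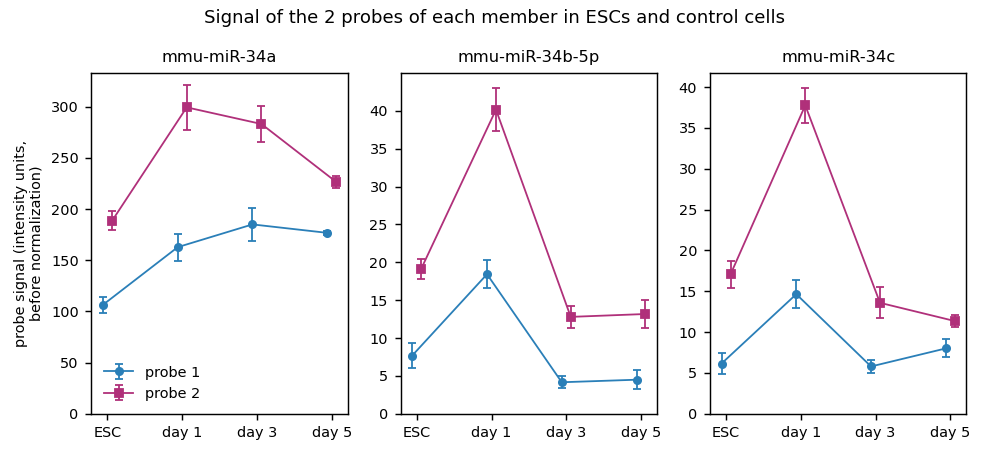
Scanner signal (total probe signal, mean ± SD of 3 arrays) of the pair of probes of each detected member in the ESC group and in control cells on days 1, 3 and 5, with a linear axis of its own for each member. Both probes of mmu-miR-34b-5p and of mmu-miR-34c peak on day 1 and are low on day 3.

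Most day 3 arrays lay on other slides than the day 1 arrays. One slide held control day 3 replicate 1 together with 7 arrays of treated day 1 cells. On it mmu-miR-34b-5p was 3.55 on the day 3 array against 6.48 to 6.80 on the day 1 arrays, and mmu-miR-34c was 3.53 against 6.56 to 6.86. mmu-miR-34a was 8.82 there against 9.74 to 10.38. The day 3 array was thus the lowest of its slide for each of the 3 members. With both factors the day 1 and day 3 arrays shared no slide, and slide and day cannot be told apart for that step.

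Over the steps from ESC to day 3, markers of the feeder cells moved along with miR-34b and miR-34c. Of 6 miRNAs listed as enriched in fibroblasts and other mesenchymal cells, 4 were detected in the ESC group, 4 to 5 on day 1, 0 to 2 on day 3 and 2 to 5 on day 5. Their summed normalized signal was 444 to 518 in the ESC group, 939 to 1040 on day 1, 0 to 35.9 on day 3 and 9.42 to 77.3 on day 5. miR-145 was detected on 2 of 39 arrays, and miR-214 and miR-199a-5p on none of the day 3 arrays. The part of carried-over feeders in the miR-34 values was not tested. Of other lists, the blood cell markers summed to 46.1 to 81.9 in ESC, 52.2 to 184 on day 1, 0 to 18.3 on day 3 and 8.19 to 22.5 on day 5, with miR-142-5p and miR-451 at 0 arrays. The neural markers summed to 0 to 32.7, 36.5 to 82.6, 41.4 to 244 and 35.0 to 1835 in the same order. The 6 pluripotency markers were detected on all 39 arrays, ESC and differentiated alike.

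**Figure D4:**
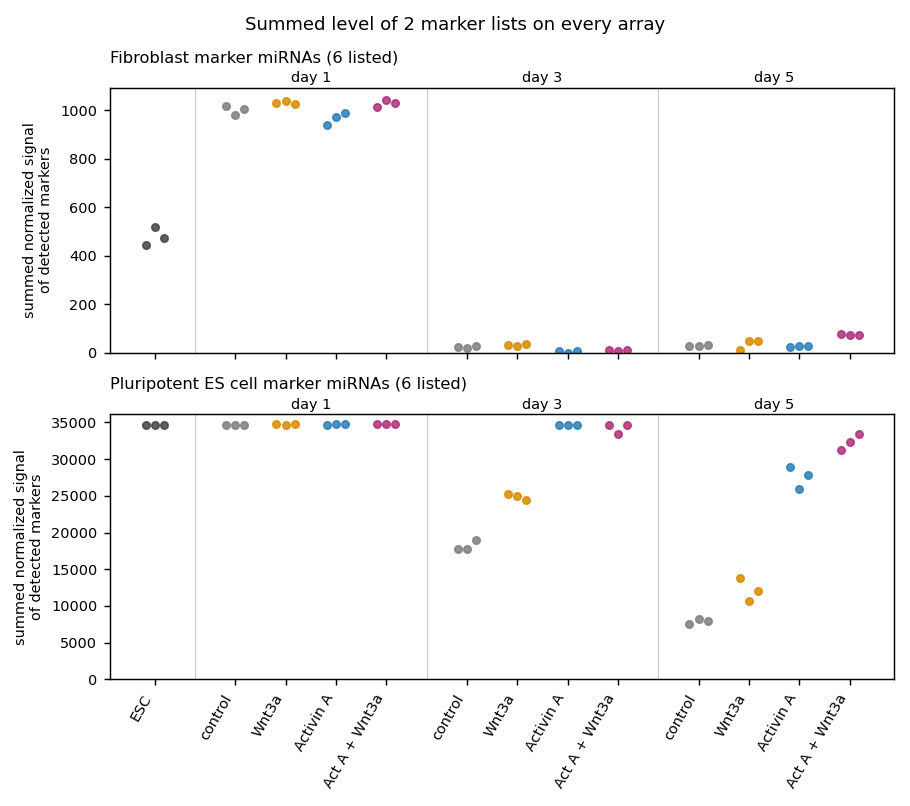
Summed normalized signal of the detected miRNAs of the fibroblast list and the pluripotency list on each array, by group along the x axis; points are arrays. The fibroblast list is highest on the day 1 arrays (939 to 1040), lower in ESC (444 to 518) and at most 35.9 on day 3.

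From day 3 to day 5 the further changes were small. In control cells mmu-miR-34a fell by 0.38 (adjusted p = 0.00146) and mmu-miR-34b-5p fell by 0.79 (adjusted p = 0.0355), while mmu-miR-34c differed by -0.54 (adjusted p = 0.301). Without normalization between arrays the log2 difference of mmu-miR-34b-5p was 0.040, of the opposite sign (adjusted p = 1), and its test passed in 1 of 6 omissions of an array. None of the 3 was called at the 2-fold limit, where 18.5% of all miRNAs were. mmu-miR-34a also fell with Wnt3a by 0.51 (adjusted p = 6.48e-05), with Activin A by 0.59 (adjusted p = 2.48e-05) and with both by 0.31 (adjusted p = 0.0230). Without normalization between arrays none of these 4 differences of mmu-miR-34a passed (adjusted p = 0.411 to 1). With both factors the test of mmu-miR-34a passed under 10 of 16 other settings and in 2 of 6 omissions of an array. No member was called over this step with Wnt3a (22% of all miRNAs), Activin A (6.7%) or both (4.83%). In control, Wnt3a and Activin A cells the day 5 arrays shared no slide or scan session with the day 3 arrays. Slide, scan session and day therefore cannot be told apart for those steps.

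One of these steps depended on single arrays, among them the array that stood apart. With Wnt3a mmu-miR-34c fell by 0.99 (adjusted p = 0.0366) from day 3 to day 5 and mmu-miR-34b-5p differed by -0.08 (adjusted p = 0.943). The 3 day 5 arrays read 2.25, 4.64 and 3.95 for mmu-miR-34b-5p and 1.30, 4.05 and 3.64 for mmu-miR-34c, replicate 1 being the lowest in each case. Without replicate 1, mmu-miR-34b-5p rose over this step by 0.61 (adjusted p = 0.00304) and mmu-miR-34c differed by -0.14 (adjusted p = 0.752). The test of mmu-miR-34c was also lost without Wnt3a day 3 replicate 1 or replicate 2. It passed under 7 of 15 other settings.

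Ordered by mean log2 level, the 4 day 1 groups came first for each of the 3 detected members, with each overlapping the next. The ESC group came next and overlapped neither neighbour. Below it mmu-miR-34a ran from 9.16 in Wnt3a day 3 cells, which overlapped no neighbour, to 8.24 in Activin A day 5 cells. mmu-miR-34b-5p ran from 4.26 with both factors on day 5 to 2.83 in control day 5 cells, and neighbours overlapped from the first of these down to control day 3. mmu-miR-34c ran from 4.72 in Activin A day 3 cells, which overlapped no neighbour, to 3.00 in Wnt3a day 5 cells, with all neighbours between the combined treatment on day 3 and that last group overlapping. A test over the 13 groups passed for 3 of 3 members, as it did for 88.5% of the miRNAs tested.

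On day 1 growth factors made little difference to the family. With Wnt3a the log2 differences from control were -0.04, -0.13 and -0.07 for mmu-miR-34a, mmu-miR-34b-5p and mmu-miR-34c (adjusted p = 0.297 to 0.861), and no member was called where 4.17% of 240 miRNAs were. With Activin A they were 0.03, -0.06 and 0.01, with no member and 0% of miRNAs called by limma, and 40 miRNAs at an unadjusted p under 0.05. With both factors mmu-miR-34b-5p was 6.48, 6.59 and 6.78 against 7.05, 6.80 and 6.88 in control cells, without overlap, and fell by 0.29 ± 0.09 (adjusted p = 0.0467). Without normalization its log2 difference was 0.073, of the opposite sign (adjusted p = 0.802), and the test passed in 4 of 12 omissions of an array. mmu-miR-34a differed by -0.29 (adjusted p = 0.0904) without overlap and mmu-miR-34c by -0.16 (adjusted p = 0.194) with overlap. The share of all miRNAs without overlap is not given, so the overlaps only describe the arrays. None was called, beside 5.42% of miRNAs. The arrays with both factors lay on another slide than the control arrays. With slide as a fixed term the difference of mmu-miR-34b-5p was -0.13 (adjusted p = 0.778), and with the replicate number as a block its adjusted p was 0.0897.

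On day 3 mmu-miR-34c was higher with Activin A than without growth factors, and so, less firmly, was mmu-miR-34b-5p. mmu-miR-34c was 4.62, 4.89 and 4.64 with Activin A against 3.53, 4.13 and 3.40 in control cells, a difference of 1.03 ± 0.25 (2.05-fold; adjusted p = 0.00575), without overlap. It was the 1 member called higher, where 12.6% of 326 miRNAs were. As no control array of day 3 had at least 50% of its spots well above background, on the normalized scale mmu-miR-34c was at least 1.57-fold higher and mmu-miR-34b-5p at least 1.08-fold higher. Over 5 further scalings the log2 difference of mmu-miR-34c ran from 0.12 to 2.44. mmu-miR-34b-5p was 4.15, 4.23 and 4.15 against 3.55, 3.99 and 3.30, and rose by 0.56 ± 0.17 (adjusted p = 0.0202). That test passed under 11 of 17 other settings, with log2 differences of 0.13 to 0.96, and in 9 of 12 omissions of an array, and it was lost with slide as a fixed block. mmu-miR-34a differed by 0.00. The fold of mmu-miR-34c lay so near the limit that the call, though not the test, was lost without Activin A day 3 replicate 2, control day 3 replicate 1 or control day 3 replicate 3, with log2 differences of 0.95, 0.96 and 0.89 in that order. Within the slide that held 3 Activin A arrays and 2 control arrays of day 3 the differences were 0.96 for mmu-miR-34c and 0.53 for mmu-miR-34b-5p.

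With both factors on day 3 mmu-miR-34c read 4.40, 4.41 and 4.41, above every control array, and rose by 0.72 ± 0.25 (adjusted p = 0.0295), or at least 1.26-fold by the same bound. The share of all miRNAs without overlap on day 3 is not given, so the overlaps only describe the arrays. The test of mmu-miR-34c passed under 13 of 16 other settings and in 7 of 12 omissions of an array. Over 5 further scalings its log2 difference ran from 0.07 to 1.63. mmu-miR-34b-5p, at 3.81, 3.74 and 4.23, overlapped the control arrays and differed by 0.32 (adjusted p = 0.143), and mmu-miR-34a differed by 0.10 (adjusted p = 0.0685). No member was called, beside 20.2% of miRNAs. The arrays of the combined treatment shared no slide with another day 3 array, so slide and treatment cannot be told apart.

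Wnt3a alone on day 3 left mmu-miR-34b-5p and mmu-miR-34c overlapping control, with differences of 0.08 and 0.30 (adjusted p = 0.763 and 0.383). mmu-miR-34a was 9.16 on each of the 3 Wnt3a arrays against 8.82 to 8.87 in control cells. It rose by 0.32 ± 0.04 (adjusted p = 0.000476), a 1.25-fold change. As it held rank 27 on all 3 Wnt3a arrays, its spread there was understated. Its scanner signals on them were 647, 651 and 737. No member was called, beside 3.07% of miRNAs. The difference between Wnt3a's effect on mmu-miR-34a with and without Activin A was itself tested and was -0.22 ± 0.06 (adjusted p = 0.0323), as 22.7% of miRNAs also passed. That test passed under 11 of 15 other settings and in 3 of 12 omissions of an array. It was lost with the replicate number as a block (adjusted p = 0.0640), after normexp, without normalization and with other arrays in the fit. The day 3 arrays with both factors shared no slide with the others of that day, so slide cannot be told apart here.

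On day 5 the control cells were the lowest for mmu-miR-34b-5p apart from 1 Wnt3a array. mmu-miR-34b-5p was 2.88, 2.77 and 2.83 in control cells, 4.15, 4.17 and 3.95 with Activin A and 4.31, 4.31 and 4.15 with both factors. mmu-miR-34c was 3.20, 3.52 and 2.71 in control cells, 4.07, 4.09 and 4.03 with Activin A and 4.41, 4.46 and 4.09 with both. mmu-miR-34a was 8.43, 8.52 and 8.43 in control cells, 8.29, 8.26 and 8.18 with Activin A and 8.61, 8.61 and 8.66 with both. Neither treated group overlapped control for any of the 3 members. As the share of all miRNAs without overlap is not given, this only describes the arrays.

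With both factors mmu-miR-34b-5p rose by 1.43 ± 0.48 (2.70-fold; adjusted p = 0.0367), the 1 member called higher beside 15.5% of 368 miRNAs. mmu-miR-34c differed by 1.18 ± 0.60 (adjusted p = 0.147) and mmu-miR-34a by 0.17 ± 0.11 (adjusted p = 0.272). With Activin A mmu-miR-34b-5p differed by 1.26 ± 0.48 (adjusted p = 0.0689), mmu-miR-34c by 0.92 ± 0.60 (adjusted p = 0.283) and mmu-miR-34a by -0.22 ± 0.11 (adjusted p = 0.181), and no member was called beside 25% of miRNAs. With Wnt3a the differences were 0.79, -0.15 and 0.19 for mmu-miR-34b-5p, mmu-miR-34c and mmu-miR-34a (adjusted p = 0.355, 0.992 and 0.337), and no member was called beside 3.8%.

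The large errors on day 5 came with the Wnt3a array that stood apart, since all 12 arrays of a day share 1 estimate of spread. Without it the differences with both factors were unchanged in size but had adjusted p = 7.26e-05 for mmu-miR-34b-5p, 0.00119 for mmu-miR-34c and 0.0170 for mmu-miR-34a. With Activin A they had adjusted p = 0.000193, 0.00519 and 0.00548, mmu-miR-34a being lower (with all arrays and no normalization its difference was 0.17, adjusted p = 0.781). With Wnt3a the differences became 1.47 (adjusted p = 0.000728) for mmu-miR-34b-5p, 0.70 (adjusted p = 0.0487) for mmu-miR-34c and 0.34 (adjusted p = 0.00266) for mmu-miR-34a. With all arrays kept, the call of mmu-miR-34b-5p with both factors was lost when any 1 of the 9 control, Activin A or combined arrays was left out (log2 differences of 1.40 to 1.49, adjusted p = 0.0524 to 0.0912).

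**Figure D5:**
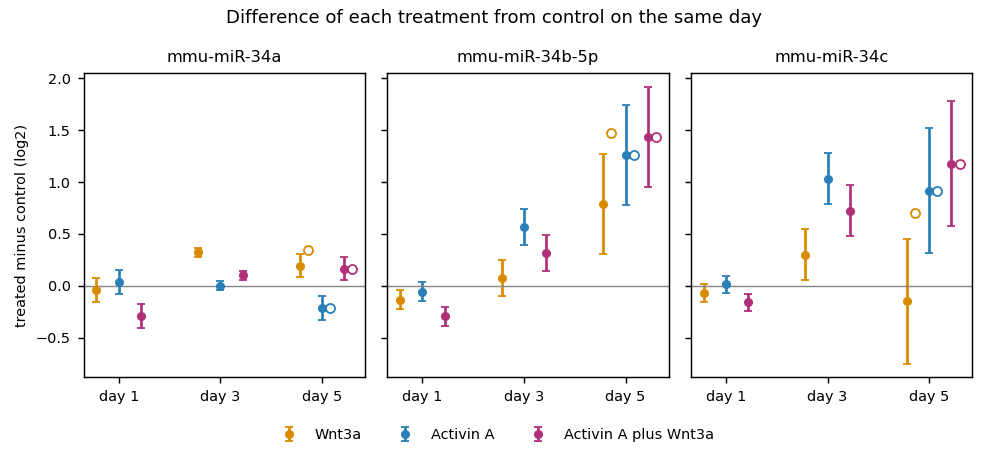
Log2 difference from control of the same day (± SE) for mmu-miR-34a, mmu-miR-34b-5p and mmu-miR-34c with Wnt3a, Activin A or both on days 1, 3 and 5; open circles give day 5 without the array of Wnt3a replicate 1. Day 1 differences lie between -0.29 and 0.03, and on day 5 mmu-miR-34b-5p stands at 1.26 with Activin A and 1.43 with both.

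Slides could be compared for Activin A on day 5, where 1 slide held 2 Activin A and 3 control arrays. Within it the differences were 1.33 for mmu-miR-34b-5p, 0.93 for mmu-miR-34c and -0.18 for mmu-miR-34a. Wnt3a and the combined treatment lay on another slide than control on day 5. With slide as a fixed term, which draws on an Activin A array of that slide, the difference of mmu-miR-34b-5p with both factors was 1.64 (adjusted p = 0.268).

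Pluripotency markers moved in the same groups. Their summed normalized signal on day 3 was 17777 to 18960 in control cells, 24417 to 25248 with Wnt3a, 34631 to 34638 with Activin A and 33444 to 34643 with both. On day 5 it was 7548 to 8229, 10647 to 13811, 25930 to 28875 and 31285 to 33429 in that order, beside 34672 to 34692 in the ESC group. Quantile normalization gives the top ranks the same values on every array, so close sums can hide a spread. The scanner signals summed to 28634 to 31771 in the ESC group. On day 3 they summed to 15081 to 15618 in control cells, 24919 to 27392 with Wnt3a and 33029 to 41673 with Activin A. With both factors that sum was 31362 to 37766. The fibroblast list on day 5 stood at 28.8 to 29.5 in control cells, 24.2 to 28.8 with Activin A and 72.0 to 77.3 with both. The neural list moved too, at 181 to 244 in control cells on day 3, 199 to 227 with Wnt3a, 94.7 to 97.7 with Activin A and 41.4 to 49.9 with both. On day 5 it was 747 to 980 in control cells, 723 to 1835 with Wnt3a, 77.7 to 87.5 with Activin A and 35.0 to 40.2 with both. The part of any of these cell types in the miR-34b and miR-34c differences was not tested.

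Adding Wnt3a to Activin A gave no difference that passed for any member on day 1, day 3 or day 5. Over all miRNAs 25 of 240 passed on day 1, 96 of 326 on day 3 and 18 of 368 on day 5. At the 2-fold limit no member was called, beside 0.833%, 3.99% and 2.72% of miRNAs in that order. For mmu-miR-34a the differences were -0.33 (adjusted p = 0.0912) on day 1, 0.10 (adjusted p = 0.113) on day 3 and 0.38 ± 0.11 (adjusted p = 0.121) on day 5, when the 3 arrays with both factors lay above the 3 with Activin A. The share of all miRNAs that did so is not given. Without the Wnt3a array that stood apart the day 5 difference had adjusted p = 0.00105.

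Whether a treatment's effect changed between days was also tested. The effect of both factors on mmu-miR-34a differed between day 1 and day 3 by 0.40 ± 0.13 (adjusted p = 0.0335), as 21.4% of miRNAs did. This passed under 8 of 14 other settings and in 5 of 12 omissions of an array. Their effect on mmu-miR-34b-5p differed between day 3 and day 5 by 1.12 ± 0.43 (adjusted p = 0.0496), as 28.4% of miRNAs did. That test passed under 5 of 14 other settings and in 2 of 12 omissions of an array. Of 27 such tests over the 3 members, including the interactions of the factors within a day, 3 passed. Those 3 all use the day 3 arrays with both factors, so slide and treatment cannot be told apart in them.

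mmu-miR-34b-3p gave no level. Its total signal was set to the software's fill value of 0.1 on every array. Its 2 probes read -0.850 to 6.38, and at most 2 of 20 spots were well above background on any array, with such a spot on 11 arrays. The other arm of the same hairpin, mmu-miR-34b-5p, was detected on all 39. The star arm miR-34c* was likewise not detected where mmu-miR-34c was.

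The pattern over the 13 groups was shared closely between mmu-miR-34b-5p and mmu-miR-34c, with a correlation of their group means of 0.978. For comparison, 2 and 3 of 370 other miRNAs had a higher correlation with them. mmu-miR-34a correlated at 0.924 with each. These are descriptions over 13 group means that share arrays and normalization. The miRNAs most like mmu-miR-34b-5p were miR-29c (0.984), miR-29b (0.981) and miR-22 (0.974), each detected on 39 arrays. Those most like mmu-miR-34c were let-7c (0.984), miR-29b (0.983) and miR-155 (0.979). Those most like mmu-miR-34a were let-7b (0.949), let-7g (0.948) and miR-155 (0.940), of which let-7b and let-7g were detected on 14 and 15 arrays only.

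Other miRNAs linked to p53 did not share a single course. Of 10 miRNAs outside the family that were listed as p53-linked and were on the array, 6 could be tested. From ESC to control day 1, 3 were higher and 0 lower at an adjusted p under 0.05. Over all 373 miRNAs 65 were higher and 48 lower. The median log2 difference of the list was 0.52 beside 0 over all miRNAs. From day 1 to day 3, 1 was higher and 1 lower, with a median of -0.17 beside 0.50 over all 373, of which 156 were higher and 81 lower. miR-200c, known for restraining epithelial-to-mesenchymal transition, rose by 1.24 from ESC to day 1 and fell by 0.89 (adjusted p = 8.05e-10) from day 1 to day 3. miR-107 rose by 0.66 (adjusted p = 1.91e-09) over the latter step, while miR-16, which targets cell cycle genes, differed by -0.22 (adjusted p = 0.243) and miR-143 by -1.23 (adjusted p = 0.155). miR-143 and miR-145 also stand on the fibroblast list. From day 3 to day 5, 2 of the 6 were higher and 1 lower, with a median of 0.13 beside 0 over all 373. Of those 373, 77 were higher and 78 lower.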

How the data were processed

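Total RNA of 39 samples was labelled with Cy3 and hybridised to Agilent 1-colour miRNA arrays by the authors. Per the file headers the images were read with Feature Extraction 10.7.3.1 (the labels name Agilent Feature Extraction 9.5.3.1). The deposited scanner files hold intensity values per miRNA, background subtracted and summed over its probes, with detection flags set by the software as other, yes-or-no columns. The deposited table of processed log2 values served as an alternative, since 18 of its 39 columns matched another array of the Activin A groups. Background intensity was 35 to 42 and 0 spots were saturated. The number of arrays, 3 per group, limits the precision.

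Total signals were quantile normalized over 39 arrays, set to at least 2 and taken to log2. miRNAs detected on at least 2 of 3 arrays of a group were tested with limma 3.58.1 (R 4.3.3; empirical Bayes, Benjamini-Hochberg adjustment over all miRNAs tested). Steps in time and the test over 13 groups were fitted on 39 arrays, and treatments on the 12 arrays of their day. Tables were made with pandas 2.3.3 under python 3.11.15, and the fits were tested on simulated data. The text names the 4 members, miRNAs of the same seed, the 3 most correlated miRNAs per member, and 4 p53-linked miRNAs with the largest difference between control day 1 and day 3. The members, lists and tests were chosen with earlier results of these data known. Replicate numbers did not pair samples: deviations from group means correlated with a median of -0.006 over 234 same-numbered pairs and -0.010 over 468 other pairs.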

Additional observations from a re-analysis of the deposited data

Results flagged for a closer look

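In 3 cases a test of the difference between effects passed for a member. Each uses the day 3 arrays with both factors, which shared no slide with other day 3 arrays. Slide and treatment therefore cannot be told apart in these cases. The effect of Wnt3a on mmu-miR-34a on day 3 differed with and without Activin A by -0.22 on the log2 scale (adjusted p = 0.0323), and by the same value with an adjusted p of 0.0640 with the replicate block. That test passed under 11 of 15 other settings and in 3 of 12 omissions of an array. The effect of Activin A plus Wnt3a on mmu-miR-34a differed between day 1 and day 3 by 0.40 (adjusted p = 0.0335), and by -0.04 (adjusted p = 0.978) in the authors' table with columns as named. Its test was also lost in that table with columns matched to arrays, under both 75th percentile scalings, without normalization and with no detection filter. It passed under 8 of 14 other settings and in 5 of 12 omissions of an array. The effect of Activin A plus Wnt3a on mmu-miR-34b-5p differed between day 3 and day 5 by 1.12 (adjusted p = 0.0496). Over 14 other settings the log2 differences were 0.06 to 1.24, and 5 of these settings kept the test past the threshold. That test passed in only 2 of 12 omissions of an array. The tests of change between days were added after seeing the data.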

How the results depend on the processing

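Results were recomputed under 18 settings and with each array left out in turn; the setting without normalization was added after seeing the data. The test over 13 groups and the comparisons of both factors with Activin A alone kept their counts of members throughout. Under normexp the members called numbered 0 of the main 2 for ESC to day 1, 1 of the main 3 for day 1 to 3 in control and in Activin A cells, and 0 for that step with Wnt3a and with both factors. Without normalization the Activin A step from day 1 to 3 kept 1. From day 3 to 5, 1 member was called with Activin A under quantile normalization of log2 signals and in the authors' table with columns matched to arrays, and 1 with both factors in that table as named, where the main count was 0. For Activin A on day 3 the count was 0 in place of 1 under the 75th percentile of miRNAs detected on all arrays, normexp, a floor before normalization, a floor of 16, the table as named and slide as a fixed block. With both factors on day 3 it was 1 in place of 0 under quantile normalization of log2 signals, the table as named and no normalization. For Activin A on day 5 it was 1 in place of 0 under the 75th percentile over all miRNAs, quantile normalization of log2 signals, the methods' plain tests and other arrays in the fit, and 2 in the table as named. With both factors on day 5 it was 0 in place of 1 under the 75th percentile of detected miRNAs, normexp, a floor of 16, the table as named, no normalization, no detection filter and slide as a fixed block, and 2 under the table as matched, plain tests, other arrays and slide as a random block. Leaving out 1 array gave 2 to 3 members for day 1 to 3 with Wnt3a or both factors, 0 to 1 for Wnt3a from day 3 to 5, 0 to 1 for Activin A on day 3, 0 to 1 for Activin A and for Wnt3a on day 5 and 0 to 2 for both factors on day 5. The other counts did not move with any omission. Signs turned without normalization for mmu-miR-34a from day 1 to 3 in control (0.019), Wnt3a (0.22) and Activin A (0.11) cells and for the change of the effect of both factors (-0.064; -0.039 in the table as named). They also turned there for mmu-miR-34b-5p in control cells from day 3 to 5 (0.040) and with both factors on day 1 (0.073). Without Wnt3a day 5 replicate 1 they turned for mmu-miR-34b-5p with Wnt3a from day 3 to 5 and mmu-miR-34c with Wnt3a on day 5, whose values over all omissions ran from -0.59 to 0.61 and from -0.67 to 0.70. The replicate block changed 0 of 21 counts and 2 of 90 member differences, mmu-miR-34a for the interaction on day 3 (-0.22, adjusted p = 0.0640) and mmu-miR-34b-5p with both factors on day 1 (-0.29, adjusted p = 0.0897). The cause of these differences between settings was not tested. Signals of mmu-miR-34b-5p and mmu-miR-34c on day 3 and in control cells on day 5 were near background, which limits the size of any fold there.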
